A study of Mus musculus with 50 samples.

Results

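The mRNA that D2 neurons of the nucleus accumbens (NAc) were translating was compared between mice that became susceptible (Sus) and mice that stayed resilient (Res) after chronic social defeat stress (CSDS). The comparison rests on 10 of the 50 samples of the series, namely the D2-IP libraries labelled D2 Sus 1 to 5 and D2 Res 1 to 5, chosen by those labels and without the input libraries. All 10 came from RT; D2-Cre mice of the C57BL/6 strain, 8 to 12 weeks old, and each library pooled the NAc punches of 2 mice. In these mice Cre recombinase, driven by a bacterial artificial chromosome with *Drd2* sequences, switches on an HA tag on the ribosomal protein Rpl22, so that an antibody against HA precipitates ribosomes with their mRNA from Cre-expressing cells (IP). Both groups were placed with an aggressive CD1 male on up to 10 days, for 10 min per day as the labels give it and for a shorter bout as the study's methods give it, and were housed beside the aggressor otherwise. The labels tell the groups apart by how the mice then behaved in the social interaction test, which was used to sort them. Undefeated RT; D2-Cre mice gave 5 further D2-IP libraries (D2 Con), which are shown for reference. The same sorting of RT; D1-Cre mice gave 5 D1 Sus and 4 D1 Res libraries, and 3 input libraries of each D2-line group hold RNA of the whole homogenate.

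Medium spiny neurons (MSNs) are the GABA neurons that make up most of the NAc. Those that express the dopamine receptor D2 also carry the adenosine receptor encoded by *Adora2a* and the opioid peptide precursor proenkephalin, project mainly to the ventral pallidum and are inhibited by dopamine, whereas D1 neurons are excited by it. *Drd2* is also active in cholinergic interneurons, so that D2-Cre marks these as well.

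In these data no gene distinguished Sus from Res in D2 neurons after correction for the number of genes tested. By the quasi-likelihood test of edgeR, with p-values adjusted by the Benjamini-Hochberg method, 0 of 14224 genes passed an adjusted p of 0.05, and the smallest adjusted p was 0.999979. DESeq2 also called 0 genes. At the unadjusted p of 0.05 that the study used for its stress groups, 236 genes differed, which is 1.66% of all genes tested, with 135 higher (0.949%) and 101 lower (0.71%) in D2 Sus. DESeq2 gave 233. A uniform spread of p-values would have put 711.2 genes under that threshold, so the D2 comparison held fewer small p-values than a uniform spread. The smallest unadjusted p was 0.00156, for *Syk*, a tyrosine kinase of immune receptor signalling, at means of 0.947 CPM (counts scaled to a common library size after TMM normalization) in D2 Sus and 0.505 CPM in D2 Res. "Higher" and "lower" below therefore describe levels, with unadjusted p-values, and name no gene as changed. The study's methods say that mice came from several batches of defeat and that libraries were sequenced in several sets, but the labels assign no library to either. The p-values thus measure the spread between these pooled samples, and batches could not be modelled.

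**Figure D1:**
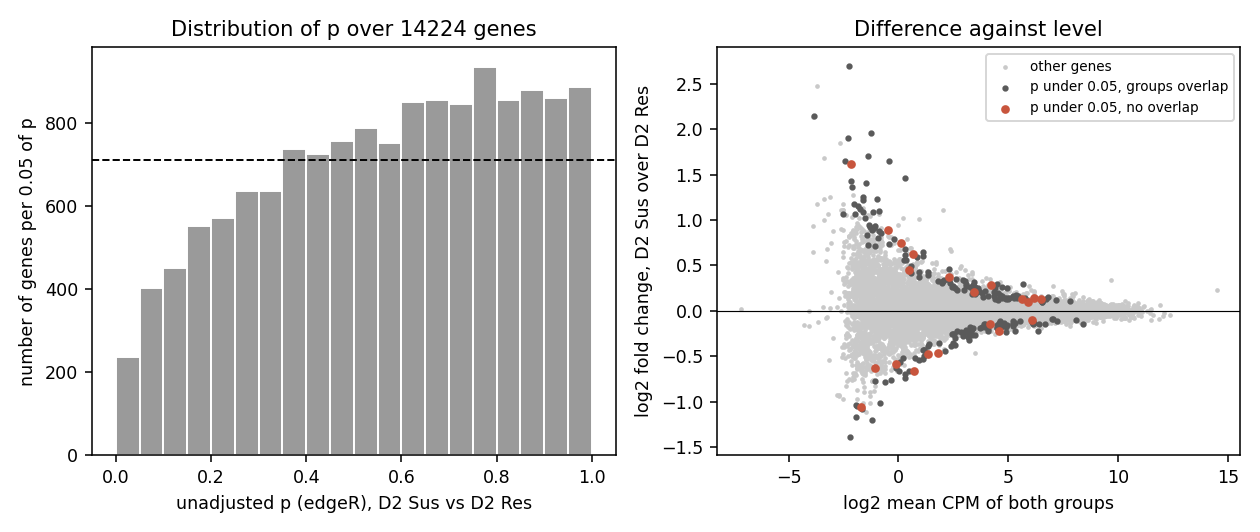
Left, number of genes (y axis) per 0.05 of unadjusted edgeR p (x axis) for D2 Sus against D2 Res, with the dashed line at the 711.2 genes per bin of a uniform spread. Right, log2 fold change of D2 Sus over D2 Res (y axis) against log2 mean CPM (x axis) for 14224 genes; the leftmost bin holds 236 genes, and the genes far from 0 lie at low levels.

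The fold change was bounded closely for most genes. The 10 libraries held 24181887 to 31009626 counts on genes. The 95% confidence interval of the fold change lay inside 1.5-fold in either direction for 11300 genes (79.4%). Precision followed the level. Of the 2351 genes at 100 CPM or more, 99.7% had an interval inside 1.5-fold, against 50.5% of the 2023 genes at 1 to 5 CPM and 0.34% of the 1767 genes under 1 CPM. For most genes under 1 CPM the interval therefore included differences of 1.5-fold or more.

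The libraries did not sort by behavior. On log2(CPM + 1) over 14224 genes, Pearson's r across genes averaged 0.99375 over the 20 pairs of libraries of the same group and 0.99433 over the 25 pairs of different groups, so that libraries of different groups were on average slightly more alike (one-sided exact permutation test over 252 divisions for a higher r within groups, p = 0.992). The first 3 principal components held 29.5%, 25.7% and 10.5% of the variance, and the scores of the groups did not differ beyond their spread (two-sided exact permutation tests, p = 0.794, 0.937 and 0.532; adjusted p = 0.937 for each). Libraries D2 Res 5 and D2 Sus 5 stood apart in the share of reads in no annotated feature (17.1% and 17.6%, against 11.1% to 15.4% in the other 8). This share is taken of the reads on genes and in no feature together. Both libraries were also high in the nuclear RNA *Malat1* (2719 and 3055 CPM, against 672.5 to 1238 CPM). The same held for the ribosomal RNA *Rn45s* (51681 and 50438 CPM, against 7405 to 26752 CPM). Without both, 450 of 14169 genes (3.18%) were under an unadjusted p of 0.05, and without D2 Res 5 alone 535 (3.77%), again with 0 genes at an adjusted p of 0.05 by edgeR.

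The markers of D2-MSNs were enriched. Summed over 6 D2-MSN markers (*Drd2*, *Adora2a*, *Gpr6*, *Penk*, *Gpr52* and *Sp9*), the level was 5590 to 7116 CPM in D2 Sus and 6595 to 6797 CPM in D2 Res, against 2019 to 3382 CPM in the D1-IPs and 980.7 to 1239 CPM in D2-line inputs. Microglial markers summed to 13.1 to 22.1 CPM in the 10 libraries and to 261 to 304 CPM in D2-line inputs. Cholinergic markers, such as *Chat*, summed to 118 to 246 CPM in D2 Sus and 152 to 193 CPM in D2 Res, against 24.3 to 70.2 CPM in the D1-IPs and 95.8 to 261 CPM in D2-line inputs, so that they were not enriched over the tissue. The sums of all 13 marker lists overlapped between D2 Sus and D2 Res.

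The genes that define D2 neurons differed between the groups by amounts bounded within narrow limits. *Drd2*, the receptor itself (chr9:49340627-49408177, plus strand), measured 354, 371, 312, 321 and 291 CPM in D2 Res 1 to 5. In D2 Sus 1 to 5 it measured 289, 319, 328, 334 and 365 CPM. The groups overlapped over almost their whole range, and the log2 fold change was -0.01 ± 0.08 (SE), with a 95% interval from -0.18 to 0.15. *Adora2a*, the adenosine receptor gene, differed by -0.06 (interval -0.23 to 0.12), *Penk*, the proenkephalin gene, by -0.05 (-0.23 to 0.13) and the orphan receptor gene *Gpr6* by 0.03 (-0.17 to 0.23). In a bulk library, fewer cells of a type and less RNA per cell cannot be told apart. The 6 D1 markers, present at lower levels in these IPs, also overlapped. *Drd1* measured 107 to 165 CPM in D2 Res and 107 to 157 CPM in D2 Sus, with a log2 fold change of -0.02 (-0.24 to 0.20).

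The signalling machinery behind the D2 receptor held no gene under the threshold. Of 24 genes of dopamine and cAMP signalling, 0 were under an unadjusted p of 0.05 (edgeR, background 1.66%), and 22 had an interval inside 1.5-fold. A list of this length, like those below, would hold few such genes at that share. *Ppp1r1b*, which encodes the phosphatase inhibitor DARPP-32, differed by -0.04 on the log2 scale (-0.21 to 0.13). *Adcy5*, the main striatal adenylyl cyclase, differed by 0.00 (-0.15 to 0.14), *Pde10a*, the striatal phosphodiesterase, by 0.01 (-0.18 to 0.21) and *Rgs9*, which speeds the shut-off of G protein signals, by -0.04 (-0.22 to 0.14). The 13 pan-MSN genes all had an interval inside 1.5-fold. *Drd3* had the highest value of the signalling list, 0.34 (-0.14 to 0.81), at 3.89 CPM in D2 Res and 4.91 CPM in D2 Sus.

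Lists of synapse and excitability genes held no gene under the threshold either. They covered 15 ionotropic glutamate receptor genes, 7 metabotropic ones, 14 GABA receptor genes, 28 potassium channel genes and 21 sodium and calcium channel genes. In each list 0 genes were under an unadjusted p of 0.05 (edgeR, background 1.66%). Lists this short would hold few such genes at that share. The list medians ran from 0.00 to 0.03 on the log2 scale, beside 0.01 for all genes tested. *Gria1* and *Gria2*, the main AMPA receptor subunits, differed by 0.00 (-0.11 to 0.11) and -0.02 (-0.13 to 0.09), and *Grin1*, the obligatory NMDA receptor subunit, by 0.04 (-0.06 to 0.13). The widest interval among these subunits belonged to *Grin2b*, at 0.06 (-0.61 to 0.73). Of 26 genes of synaptic vesicles and exocytosis and 10 neurexin, neuroligin and LRRTM genes, which join the synaptic membranes, 0 were under the threshold, and the 10 adhesion genes all had an interval inside 1.5-fold. The nearest to the threshold among the vesicle genes was *Cplx2*, a complexin gene, at -0.10 (-0.20 to 0.01).

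Neuropeptides and their receptors held no gene under the threshold either. None of 22 neuropeptide, granin and processing genes and none of 4 opioid receptor genes was under an unadjusted p of 0.05 in edgeR (background 1.66%). The secretory granule protein genes *Scg2* and *Chgb* differed by 0.00 (-0.13 to 0.13) and -0.02 (-0.14 to 0.11). *Oprd1*, the delta receptor that binds enkephalin, differed by 0.13 (-0.15 to 0.41), and *Oprk1*, the kappa receptor, by -0.04 (-0.19 to 0.11). *Oprm1*, the mu receptor, was too variable to place, at 0.07 (-0.71 to 0.84).

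The Shisa proteins and the other AMPA receptor auxiliary subunits modify how these receptors gate and traffic. None of the 13 genes was under an unadjusted p of 0.05 (edgeR, background 1.66%), and 13 had an interval inside 1.5-fold. *Shisa6* (chr11:66211725-66525964, minus strand) measured 9.58, 10.1, 11.1, 8.38 and 9.98 CPM in D2 Res 1 to 5. It measured 10.4, 8.56, 8.35, 10.8 and 9.04 CPM in D2 Sus 1 to 5. The values of the groups were interleaved, with a log2 fold change of -0.06 ± 0.13 (SE) and an interval from -0.32 to 0.20. In D1 neurons the same comparison gave 0.55 for *Shisa6* by edgeR, the gene with the smallest p-value there (unadjusted p = 0.00030, adjusted p = 0.999 in edgeR). The difference between the lines, D2 minus D1, was -0.60 (-0.98 to -0.23; unadjusted p = 0.0027, adjusted p = 1.00 in edgeR). *Shisa7*, *Shisa8* and *Shisa9* differed by 0.00, -0.09 and -0.03 in D2 neurons, and the differences between the lines for these 3 had intervals that included 0.

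Of 15 genes of the response to glucocorticoids and corticotropin-releasing hormone, 1 was under the threshold (6.67%, against 1.66% of all genes). A single gene does not describe the list. *Nr3c1*, the glucocorticoid receptor gene, differed by -0.02 (-0.14 to 0.11). Its target *Fkbp5*, a chaperone that dampens the receptor, was at 78.8 CPM in both groups (0.00, -0.10 to 0.10). *Hif3a*, a hypoxia-inducible factor subunit, was the gene under the threshold, at 1.16, 2.17, 1.54, 1.56 and 2.23 CPM in D2 Res and 0.740, 2.06, 0.928, 0.550 and 1.20 CPM in D2 Sus. D2 Sus 2 lay among the D2 Res values and D2 Sus 5 just above the lowest of them. The log2 fold change of *Hif3a* was -0.66 ± 0.30 (SE, unadjusted p = 0.035 in edgeR). Leaving out 1 library gave values from -1.02 (without D2 Sus 2) to -0.50 (without D2 Sus 4, unadjusted p = 0.11 in edgeR). Of these 10 fits, 5 were under the threshold. Of 19 clock genes and 19 heat shock and chaperone genes, 0 were under the threshold. *Per1*, a clock gene that glucocorticoids induce, differed by 0.09 (-0.07 to 0.25).

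**Figure D2:**
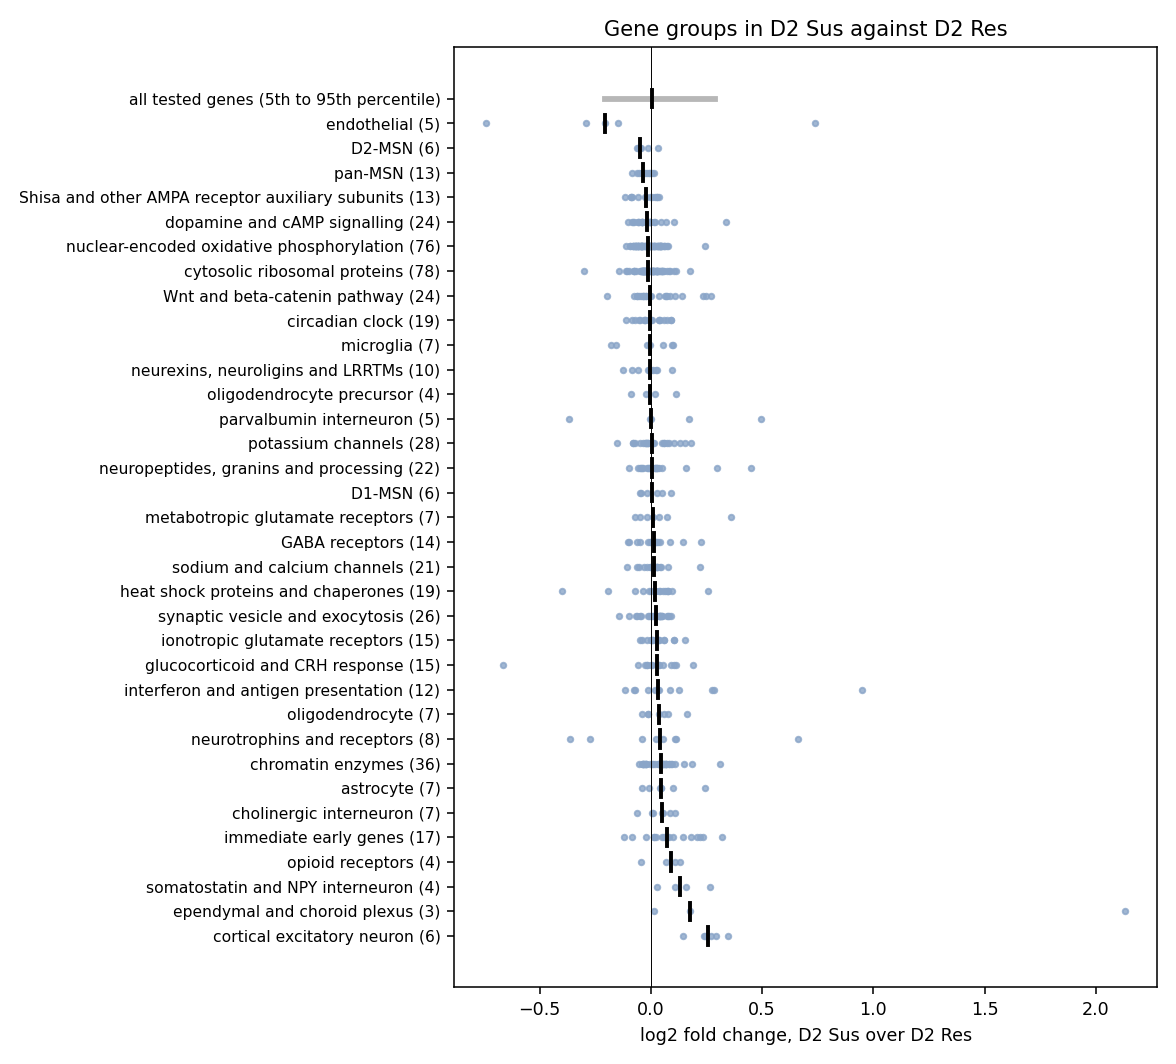
Log2 fold change of D2 Sus over D2 Res (x axis) for each tested member (points) of 34 gene lists (rows, with the number of tested members), ordered by list median (black bars). The top row gives the median and the 5th to 95th percentile of all 14224 genes; most lists are centered near 0, and the 6 cortical excitatory genes have the highest median, 0.26.

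The groups did not overlap at all for 27 genes (0.19%), 18 higher (0.127%) and 9 lower (0.0633%) in D2 Sus, and 16 of these (0.112%) also had an unadjusted p under 0.05 and a mean of at least 1 CPM. Of the 16, 10 were higher (0.0703%) and 6 lower (0.0422%) in D2 Sus, and the upward differences ran from 1.07-fold to 1.68-fold. They were chosen by this contrast, so that their values are a description.

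*Stat2* (chr10:128270559-128292849, plus strand) encodes a transcription factor that, with IRF9, carries the signal of type I interferons to the nucleus. It measured 14.998, 18.2, 17.6, 15.3 and 18.9 CPM in D2 Res 1 to 5. It measured 20.7, 21.6, 20.6, 20.97 and 19.3 CPM in D2 Sus 1 to 5. All 5 D2 Sus libraries were above all 5 D2 Res libraries, by a narrow margin, and D2 Con lay between, at 18.4 ± 1.30 CPM (SD, n = 5). The log2 fold change was 0.28 ± 0.08 (SE; unadjusted p = 0.0016, adjusted p = 1.00 in edgeR). Its partner gene *Irf9* gave 0.27 (-0.01 to 0.55). In the interferon and antigen presentation list, 2 of 12 genes were under the threshold (16.7%, against 1.66% of all genes), *Stat2* and *Oasl2*, both higher, with a list median of 0.03. *Stat2* is also among the 16 genes chosen by this contrast. *Oasl2*, an interferon-induced gene, measured 0.150 to 0.432 CPM in D2 Res and 0.323 to 0.773 CPM in D2 Sus (0.95 ± 0.43 SE). *Ifit2*, *Ifit3*, *B2m* and *H2-D1*, which interferon also induces, differed by -0.07, 0.13, -0.01 and 0.03, with intervals that included 0.

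The window from 250 bases before to 50 bases after the RefSeq start of *Stat2*, which lies upstream of the start given above, is printed because this gene had the smallest p among the 16. It is RefSeq's sequence on GRCm38 (chr10:128270248-128270547, plus strand), and the capitals mark the only match on either strand to GAAA followed, after any 2 bases, by another GAAA, the core of the element that the interferon-activated complex binds, here on the opposite strand 222 bases before the start.
Stat2: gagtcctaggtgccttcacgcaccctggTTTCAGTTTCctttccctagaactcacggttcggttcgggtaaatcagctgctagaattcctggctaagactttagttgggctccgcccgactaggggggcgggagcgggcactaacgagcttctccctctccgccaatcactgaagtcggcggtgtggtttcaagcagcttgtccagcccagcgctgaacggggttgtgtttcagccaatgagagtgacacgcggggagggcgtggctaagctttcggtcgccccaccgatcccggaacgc
Such a match was found in 369 of the 11042 tested genes with a window (3.34%) and in 3 of the 10 tested members of the interferon list that have a window, *Stat2*, *B2m* and *Ifit3*. The members *Bst2*, *Cxcl10*, *Ifit1*, *Ifitm3* and *Isg15*, whose counts were too low to be tested, also had a match. A match is a run of letters and was not tested for binding.

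Among the other genes higher in D2 Sus, *A430005L14Rik* (chr4:153957237-153961925), a protein-coding gene, measured 4.36, 4.30, 4.58, 4.22 and 3.92 CPM in D2 Res and 5.18, 5.73, 5.53, 5.65 and 5.57 CPM in D2 Sus. Its groups were clearly apart, at 0.37 ± 0.11 (SE) on the log2 scale, and D2 Con, at 5.21 CPM, lay with D2 Sus. *Cog7* (chr7:121879363-121981711), a subunit of the complex that tethers vesicles in the Golgi, measured 83.1 to 89.2 CPM in D2 Res and 89.9 to 98.9 CPM in D2 Sus (0.14 ± 0.04 SE). *Arfgap3*, which acts on ARF1 in Golgi transport, measured 9.24 to 10.7 CPM in D2 Res and 10.8 to 12.8 CPM in D2 Sus (0.21 ± 0.09 SE). *Atf6b*, a membrane-bound transcription factor related to the unfolded protein sensor ATF6, measured 45.2 to 50.4 CPM in D2 Res and 50.8 to 55.0 CPM in D2 Sus (0.14 ± 0.05 SE). For these 3 genes the gap between the groups was narrower than the spread within each group. *Cpsf1*, the largest subunit of the mRNA cleavage and polyadenylation specificity factor, measured 65.3 to 72.5 CPM in D2 Res and 72.7 to 79.2 CPM in D2 Sus (0.14 ± 0.04 SE). *Hdac6*, a cytoplasmic deacetylase of tubulin, was the single gene under the threshold among 36 chromatin enzymes (2.78%, against 1.66% of all genes). It measured 54.7 to 59.6 CPM in D2 Res and 60.0 to 64.2 CPM in D2 Sus, a 1.07-fold difference. The remaining higher genes were the solute carrier gene *Slc35f2* (1.54-fold), the lincRNA *Gm20063* (1.37-fold) and *Ddah2* (1.68-fold), each with a mean under 2 CPM in both groups.

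Among the genes lower in D2 Sus, *Fibp* (chr19:5460615-5465051), which encodes a protein that binds acidic fibroblast growth factor, had the smallest p. It measured 26.6, 23.7, 25.2, 24.5 and 27.2 CPM in D2 Res and 21.8, 19.5, 23.5, 22.9 and 21.7 CPM in D2 Sus. D2 Con, at 25.4 CPM, lay within the D2 Res values, and the log2 fold change was -0.22 ± 0.07 (SE). *Nod2*, a sensor of bacterial cell wall fragments, measured 1.67 to 2.49 CPM in D2 Res and 0.999 to 1.57 CPM in D2 Sus (-0.66 ± 0.26 SE). *Samd11*, a gene with a SAM domain, measured 2.39 to 3.75 CPM in D2 Res and 1.75 to 2.38 CPM in D2 Sus (-0.48 ± 0.19 SE). The groups of *Samd11* came within rounding of each other at 2.39 and 2.38 CPM. *Uevld*, *Suco* and the Rac activator gene *Dock5* gave -0.14, -0.11 and -0.46. *Uevld* measured 18.3 to 19.4 CPM in D2 Res and 16.3 to 17.6 CPM in D2 Sus, and *Dock5* 3.58 to 4.89 CPM and 2.32 to 3.51 CPM.

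**Figure D3:**
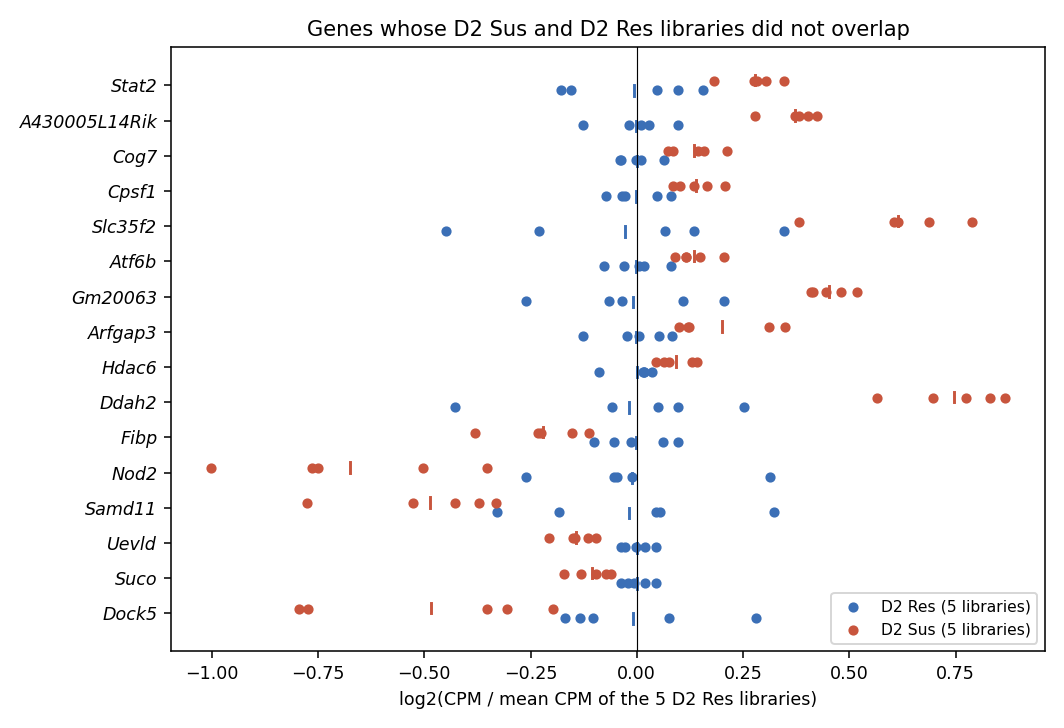
Each point is the level of a gene in 1 library as log2 of its CPM over the mean CPM of the 5 D2 Res libraries (x axis), for the 16 genes (rows) whose D2 Sus (red) and D2 Res (blue) libraries did not overlap; bars mark group means. The gap between groups is narrow for most genes, such as *Hdac6*, and wide relative to the spread for *A430005L14Rik*.

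How D2 and D1 neurons differ in this respect was tested as the difference of the Sus against Res fold change between the lines. No gene passed an adjusted p of 0.05 in edgeR (0 in DESeq2), and 289 of 14224 (2.03%) were under an unadjusted p of 0.05 (174 with a higher value in D2 neurons, 1.22%, and 115 lower, 0.808%). DESeq2 gave 282 (148 higher, 134 lower). In edgeR the Sus and Res libraries alone gave 139 higher and 130 lower. With the replicate number as a block within each line, these same libraries gave 140 higher and 232 lower. D1 neurons alone gave 601 genes (4.23%; 1.93% higher and 2.3% lower in Sus), also with 0 at an adjusted p of 0.05. Of the 236 D2 genes and 601 D1 genes, 9 were shared (3.81% of the D2 genes and 1.498% of the D1 genes), 8 of them with the same sign, and *Gm10406* with opposite signs. *Samd11* was among the 8, at -0.48 in D2 and -0.71 in D1 neurons. Of the 16 genes above, *A430005L14Rik*, *Cog7*, *Cpsf1*, *Hdac6* and *Uevld* had an unadjusted p under 0.05 for the difference between the lines. For *A430005L14Rik* the D1 value was -0.16 and the difference 0.53 ± 0.15 (SE; unadjusted p = 0.0016 in edgeR), and for *Cog7* the D1 value was -0.04 and the difference 0.18 ± 0.06 (SE). For *Stat2* the D1 value was 0.16 and the difference 0.13 (-0.12 to 0.37). The D2 side of these tests had been used to choose the genes.

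**Figure D4:**
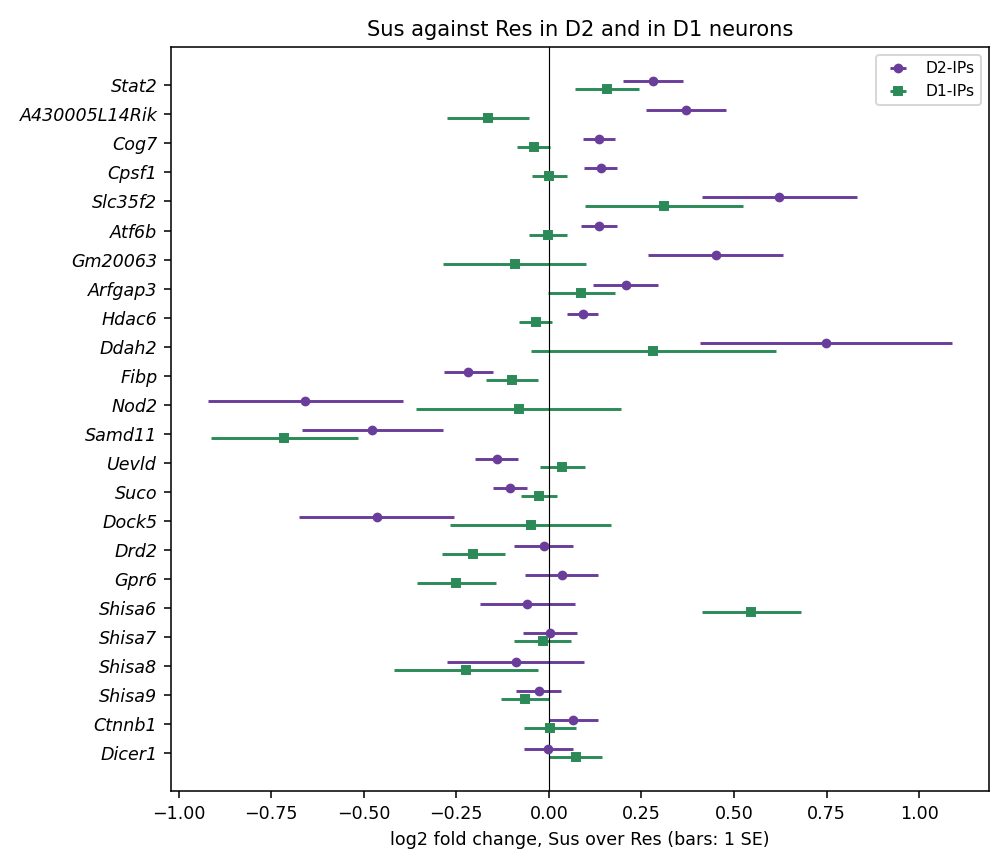
Log2 fold change of Sus over Res (x axis, bars 1 SE) in D2-IPs (circles) and D1-IPs (squares) for the 16 genes that did not overlap in D2 neurons and for 8 further genes (rows). *Shisa6* lies at -0.06 in D2 and 0.55 in D1 neurons, and *Samd11* is below 0 in both.

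The whole-tissue inputs of the D2 line, 3 libraries per group, gave no gene at an adjusted p of 0.05 either. Of 15063 genes, 418 (2.78%; 1.46% higher and 1.31% lower in Sus) were under an unadjusted p of 0.05 in edgeR and 335 in DESeq2. *Stat2* gave -0.08 ± 0.12 (SE) and *A430005L14Rik* -0.08 ± 0.16 (SE) in the inputs, both within 1 SE of 0. *Fibp* gave -0.10 ± 0.07 (SE). Of the 18 genes of the interferon and antigen presentation list, only the 12 tested in the IPs were followed in the inputs. Their median there was 0.30. Of these 12, 3 were under an unadjusted p of 0.05 in edgeR (2.78% of all input genes), among them *B2m* (0.30) and *H2-D1* (0.42). *Rpl3*, a ribosomal protein of the large subunit, was the single gene under the threshold among 78 cytosolic ribosomal protein genes in the IPs (1.28%, against 1.66% of all genes). It measured 303 to 402 CPM in D2 Res and 306 to 364 CPM in D2 Sus, at -0.14 ± 0.07 (SE), and -0.39 in the inputs (unadjusted p = 0.00072 in edgeR). The list as a whole had a median of -0.01, and 76 nuclear-encoded genes of oxidative phosphorylation also had -0.01 with 0 under the threshold. Genes named here that share sequence with pseudogenes, such as *Rpl3*, or lie over a gene on the other strand, such as *Cog7*, *Cpsf1*, *Fibp* and *Samd11*, can have gained or lost reads to those copies, and the strand setting of the counting is not given in the sources used here.

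The libraries of each group differed far more from one another in other genes. Over 10434 genes with a mean of at least 5 CPM, the SD of log2(CPM + 1) within groups had a median of 0.12, and it reached 1.43 for *Slc17a7*, the vesicular glutamate transporter of cortical and other excitatory neurons. *Slc17a7* measured 198, 149, 166, 28.4 and 58.6 CPM in D2 Res 1 to 5. It measured 13.4, 114, 172, 189 and 236 CPM in D2 Sus 1 to 5. D2 Sus 1, D2 Res 4 and D2 Res 5 were the low libraries, and the groups overlapped throughout. The cortical transcription factor gene *Neurod6* was lowest in D2 Sus 1, at 0.258 CPM, and highest in D2 Sus 4, at 11.4 CPM. Another group of the most variable genes ran the other way. *Irs4*, an insulin receptor substrate, measured 24.8 CPM in D2 Sus 1 and 0.248 CPM in D2 Sus 5, and *Prlr*, the prolactin receptor gene, 19.2 and 0.289 CPM in the same libraries. *Gabrq*, a GABA-A receptor subunit gene, *Arhgap36* and *Ngfr* were also highest in D2 Sus 1 and lowest in D2 Sus 5.

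The 6 cortical excitatory markers summed to 38.4 to 255.7 CPM in D2 Res and 21.2 to 306 CPM in D2 Sus, and to 79.3 to 1095 CPM in D2-line inputs. Their list median of 0.26 was the highest of all lists, with 0 of 6 under the threshold, and it was -0.01 without D2 Res 4 and 0.54 without D2 Sus 1. With the level of these markers as a covariate among the 10 libraries, 199 of 13578 genes (1.47%) were under an unadjusted p of 0.05. Of the 16 non-overlapping genes, chosen by this contrast, 15 were among them. The same 10 libraries without the covariate gave 164 genes (1.21%), also with 15 of the 16. Endothelial markers summed to 7.09 to 12.5 CPM in D2 Res and 4.44 to 12.9 CPM in D2 Sus. Of these 5, *Cldn5*, a tight junction protein of brain vessels, was the single gene under the threshold (-0.74 ± 0.32 SE, background 1.66%). *Ly6c1*, the only 1 of the 5 above 0, was at 0.74. The list median was -0.21 in the IPs and 0.21 in the inputs. *Cldn5* measured 1.19, 0.868, 1.58, 2.03 and 1.98 CPM in D2 Res, and 0.869, 2.02, 0.571, 0.432 and 0.702 CPM in D2 Sus. D2 Sus 2 lay with D2 Res. Leaving out 1 library gave values from -1.23 (without D2 Sus 2) to -0.57 (without D2 Sus 4, unadjusted p = 0.089 in edgeR). Of these 10 fits, 5 were under the threshold. The part of these markers in other differences was not tested beyond the covariate.

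Immediate early genes, which neurons switch on within minutes of activity, also varied by library rather than by group. None of 17 was under an unadjusted p of 0.05 (edgeR, background 1.66%), with a median of 0.07. D2 Sus 5 held the highest value for 14 of the 17 and D2 Res 4 the lowest for 8. *Fos* measured 5.18, 14.4, 12.0, 3.06 and 9.28 CPM in D2 Res 1 to 5. It measured 7.85, 6.66, 4.64, 9.07 and 22.4 CPM in D2 Sus 1 to 5. The groups overlapped, and the log2 fold change of *Fos* was 0.21 (-0.68 to 1.09) with all libraries and -0.31 without D2 Sus 5. *Arc*, whose protein acts at active synapses, was at 145.0 CPM in D2 Sus 5 and at 53.8 to 76.1 CPM in the other D2 Sus libraries, against 34.9 to 97.2 CPM in D2 Res. Its log2 fold change was 0.18 with all libraries and -0.18 without D2 Sus 5. The list median was then -0.10. D2 Sus 5 was also the library with the highest share of reads in no feature. With that share as a covariate, the log2 fold change was 0.14 for *Fos* and 0.13 for *Arc*. Its part in the values of D2 Sus 5 itself was not tested.

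The start windows of *Fos* and *Npas4*, both members of this list, are shown because both genes were highest in D2 Sus 5. They are RefSeq sequences on GRCm38 (chr12:85473640-85473939, plus strand, and chr19:4989922-4990221, minus strand), and the capitals mark matches on either strand to TGACG, the shorter core of the cAMP response element.
Fos: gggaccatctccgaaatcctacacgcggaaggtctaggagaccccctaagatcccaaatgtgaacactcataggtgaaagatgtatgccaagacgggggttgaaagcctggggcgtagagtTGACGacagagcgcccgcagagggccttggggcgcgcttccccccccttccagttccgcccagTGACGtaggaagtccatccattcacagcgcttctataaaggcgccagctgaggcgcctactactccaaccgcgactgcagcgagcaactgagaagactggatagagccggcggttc
Npas4: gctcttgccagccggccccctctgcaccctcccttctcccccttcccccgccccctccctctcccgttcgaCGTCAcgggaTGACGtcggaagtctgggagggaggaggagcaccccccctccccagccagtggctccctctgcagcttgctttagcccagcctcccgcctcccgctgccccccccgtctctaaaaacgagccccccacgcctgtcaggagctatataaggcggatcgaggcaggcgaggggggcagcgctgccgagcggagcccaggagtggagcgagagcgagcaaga
This core was found in 11 of 13 immediate early genes with a window, beside 3826 of 11042 tested genes (34.6%). The full element, TGACGTCA, which contains the core on both strands, was found in 2 of the 13 and in 395 of the 11042 (3.58%).

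**Figure D5:**
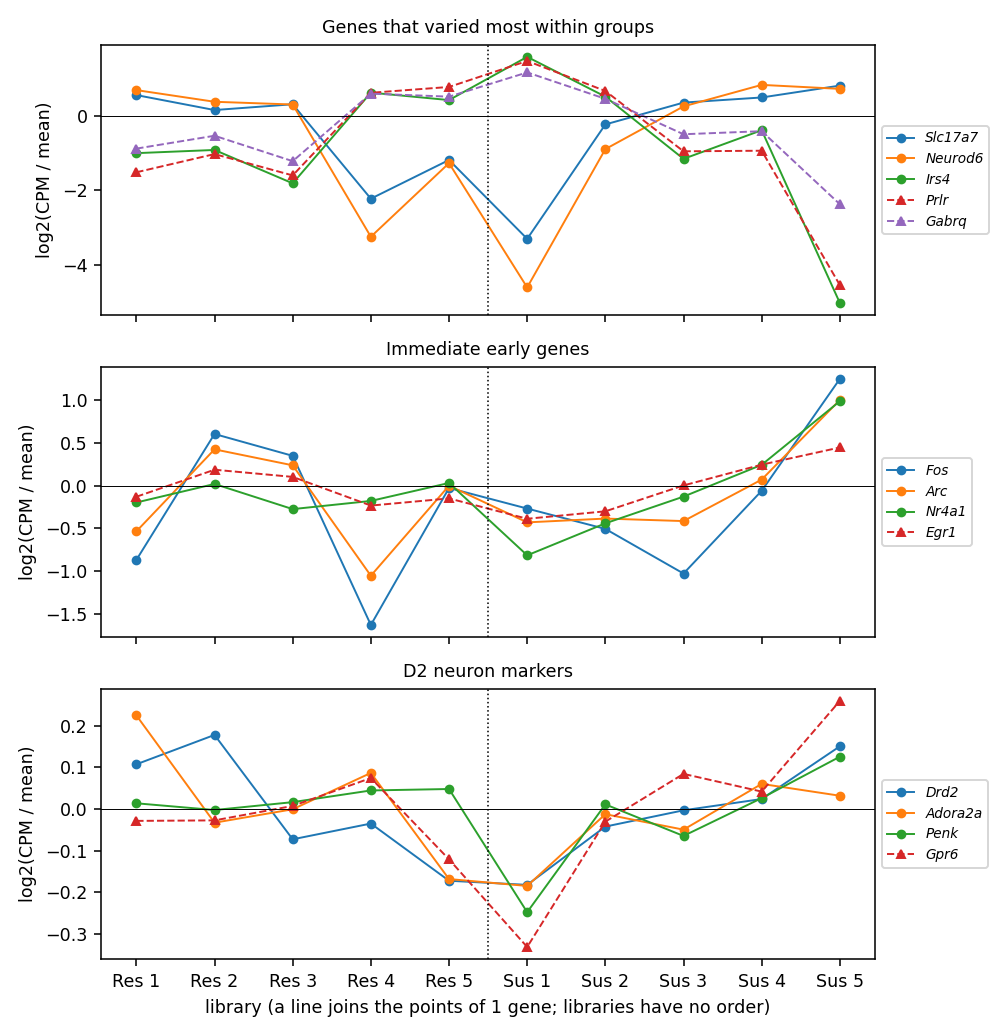
Level of single genes in each of the 10 libraries (x axis) as log2 of the CPM over the gene's mean over the 10 libraries (y axis; scales differ between panels). D2 Sus 1 is low in *Slc17a7* and high in *Irs4*, D2 Sus 5 is high in *Fos* and *Arc*, and the D2 markers in the bottom panel stay between -0.4 and 0.3.

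The remaining lists held few or no genes under the threshold, but in some of them the intervals were wide. Of 8 genes of neurotrophins and their receptors, 0 were under it (background 1.66%), and 3 had an interval inside 1.5-fold. The values of these 8 ran from -0.36 for *Ntf3* to 0.66 for *Ngfr*. The neurotrophin *Bdnf* measured 0.466 to 2.33 CPM in D2 Res and 1.17 to 2.43 CPM in D2 Sus (0.11, -0.72 to 0.95), and its receptor gene *Ntrk2* differed by 0.02 (-0.13 to 0.18). Of 24 genes of the Wnt and beta-catenin pathway, 0 were under the threshold. *Ctnnb1*, which encodes beta-catenin, measured 426 to 528 CPM in D2 Res and 418 to 553 CPM in D2 Sus (0.07, -0.07 to 0.20), and *Dicer1*, the nuclease that matures microRNAs, differed by 0.00 (-0.14 to 0.13). Among chromatin enzymes 25 of 36 lay above 0, beside 7602 of all 14224 genes tested. Their median was 0.04, beside 0.01 for all genes, and 34 had an interval inside 1.5-fold. *Rpl22*, which carries the tag, measured 26.5 to 36.8 CPM in D2 Res and 33.4 to 36.7 CPM in D2 Sus and differed by 0.05 (-0.10 to 0.21). Markers of astrocytes, oligodendrocytes and their precursors, microglia, interneurons and ependymal and choroid plexus cells held 0 genes under the threshold. An interval inside 1.5-fold was found for 2 of 7 microglial genes. The same held for 1 of 3 ependymal and choroid plexus genes, among which *Ttr* was at 2.13.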

How the data were processed

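The deposited values are counts per gene, whole numbers that the authors obtained from paired-end reads with cutadapt (trimming), STAR (alignment, build mm10) and HTSeq (counting); the labels' notes also name FastQC, HOMER and DESeq2, and versions and the gene annotation are not given in the sources used here. The authors normalized by relative log expression for their own tests, but the counts are not normalized. The table held 24552 genes and 5 entries without a gene, which took 18.6% to 28.3% of the reads in the 10 libraries and were left out. Of its columns, 2 had no sample among those used and were left out.

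All 28 IP libraries entered 1 edgeR 4.0.16 model (R 4.3.3) with 6 group means, TMM factors and filterByExpr (minimum count 10, total 15). The 18 inputs had their own model. Groups followed the labels. Intervals assume the quasi-likelihood fit. DESeq2 1.42.0, other filters, RLE factors, fewer libraries, the replicate number as a block, covariates and leaving out each library were alternatives. Programs were tested on simulated data.

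The members, lists and alternatives were chosen with earlier results of these data known. Genes named are those past an adjusted p of 0.05 (none), up to 10 per direction with the smallest unadjusted p under 0.05, a mean of at least 1 CPM and no overlap, up to 4 per list under that p, and a preset list of markers and stress genes. Other genes named (*Syk*, *Gm10406*, *Slc17a7* and the other variable genes, and list members quoted as examples) and the sequences shown were picked with their values in view. The covariate fits, the joint omission of D2 Res 5 and D2 Sus 5 and the unblocked fits of the Sus and Res libraries alone for the inputs and the line difference were also added after seeing the data. Positions are from GENCODE vM21 on GRCm38 (mm10), matched by symbol. Replicates differed beyond sampling noise (chi-square per gene 5.15 to 91.7 over 20 pairs). Mitochondrially encoded genes were not analysed here. Figures were drawn with matplotlib 3.10.9 in Python. Some genes are not reported here.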

Additional observations from a re-analysis of the deposited data

Results flagged for a closer look

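In each group of 5 libraries, the highest or lowest value was set against the rest (Dixon's criterion, 0.71 for 5 values). Over 112 groups of values, 7 stood out, and chance alone flags about 1 in 20. *Fos* and *Arc* were high in D2 Sus 5, at 22.4 CPM (others 4.64 to 9.07) and 145.0 CPM (others 53.8 to 76.1). *Cldn5* and *Rpl22* were high in D2 Sus 2, at 2.02 CPM (others 0.432 to 0.869) and 36.7 CPM (others 33.4 to 34.1). *Chrm4*, a muscarinic receptor gene, was high in D2 Sus 3, at 87.1 CPM (others 54.7 to 62.7). *Chat*, the acetylcholine-synthesizing enzyme of cholinergic interneurons, was high in D2 Res 5, at 33.4 CPM (others 18.9 to 22.5). *Hdac6* was low in D2 Res 1, at 54.7 CPM (others 58.8 to 59.6), and its difference was past an unadjusted p of 0.05 in edgeR under 10 of 20 alternatives and not without that library.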

How the results depend on the processing

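The D2 count stayed at 0 genes at an adjusted p of 0.05 under all alternatives run, as did the D2 minus D1 difference and the inputs, so that replacing the unadjusted threshold gave 0, 0 and 0. At an unadjusted p under 0.05, the D2 count of 236 ran from 164 to 300 under 8 of 10 alternatives. It was 447 (264 higher, 183 lower) with all genes of at least 1 count, where more genes are tested, and 450 (263 higher, 187 lower) without D2 Res 5 and D2 Sus 5. Leaving out single libraries gave 210 to 535 (120 to 243 higher, 85 to 292 lower), with 535 without D2 Res 5 and 215 higher without D2 Sus 1; the cause was not tested. The difference between the lines (289; 174 higher, 115 lower) was 513 (275 higher, 238 lower) with all genes of at least 1 count, and 252 to 421 (133 to 232 higher, 93 to 197 lower) without single libraries. Of these, 173 lower without D2 Sus 2 and 197 without D2 Sus 5 moved by over 1.5 times. The inputs (418; 220 higher, 198 lower) gave 340 to 639 (191 to 340 higher, 147 to 326 lower) without single libraries. Without D2 Sus input 1 the total was 630 and without D2 Sus input 3 it was 639.

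The replicate numbers did not pair the D2 libraries. Deviations of same-numbered libraries correlated at -0.18, 0.16, 0.46, -0.04 and 0.38, and 4 of 10 libraries correlated best with their own number. Fits with the replicate block used only the Sus and Res libraries. On the same libraries without and with the block, the D2 count was 164 and 262, that of the difference between the lines 269 (139 higher, 130 lower) and 372 (140 higher, 232 lower), and that of the inputs 220 (114 higher, 106 lower) and 123 (76 higher, 47 lower). The unblocked fits of the difference and of the inputs were added after seeing the data.

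The 16 non-overlapping genes were chosen by this contrast in these same libraries, so that refitting them gives no independent support. They kept their sign under all alternatives and stayed under an unadjusted p of 0.05 in 280 of 316 fits. *Stat2*, *A430005L14Rik*, *Cog7*, *Cpsf1*, *Slc35f2*, *Atf6b* and *Fibp* did so in each. *Hdac6* did so in 10 of 20, *Rpl3* in 9 of 20, *Cldn5* in 9 of 19, *Hif3a* in 10 of 19 and *Oasl2* in 12 of 19. Of 680 list medians, 1 moved by more than the SD of the list's level between libraries of a group (neurexins, neuroligins and LRRTMs, -0.04 without D2 Res 5). That limit is wide beside the effect of leaving out a library, so that the tally does not show that the medians were stable. The cortical excitatory median of 0.26 was not counted as moved. It was -0.16 without D2 Res 5 and D2 Sus 5 and 0.54 without D2 Sus 1. Intervals were widest for genes under 1 CPM; whether depth or the spread between libraries limits them was not tested.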
